A study of Mus musculus with 6 samples.

Results

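Interferon regulatory factors are transcription factors that share a DNA-binding domain and read GAAA repeats in the promoters of immune genes. The family was taken as the 8 genes Irf1, Irf2, Irf3, Irf4, Irf5, Irf7, Irf8 and Irf9, found by their symbol in the platform annotation, out of 19938 genes tested. All 8 were measured, on 9 probe sets that each carry a single gene symbol, Irf1 having 2 of them. Mouse Gene 1.0 ST arrays, which hold probes along each transcript, were hybridised with total RNA from bone marrow derived macrophages of C57BL/6 mice. The marrow cells had been kept for 7 days with CSF1, the macrophage colony-stimulating factor (3 arrays, M(CSF1)), or with CSF2, the granulocyte-macrophage colony-stimulating factor (3 arrays, M(CSF2)), and were sorted before lysis. No genetic change is named in either group. The labels call the replicates biological but do not say whether they came from separate mice. A p-value here therefore sets the group difference only against the spread between the samples at hand. That spread may be technical, without differences between mice. The RNA is bulk RNA, in which fewer cells of a type and less RNA per cell cannot be told apart.

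The members have different jobs. Irf3 and Irf7 lie idle until kinases downstream of nucleic acid and lipopolysaccharide sensors phosphorylate them, after which they switch on type I interferon genes, while Irf9 joins STAT2 to carry the signal of the interferon receptor to the nucleus. Irf1 is induced by interferon gamma and activates many of its targets, Irf2 competes for the same sites, and Irf5 acts below Toll-like receptors on inflammatory cytokine genes. Irf4 and Irf8 bind DNA weakly alone and mostly together with the ETS factors PU.1 and Spi-B or with BATF and JUN factors. Irf8 is known for steering myeloid precursors to monocytes, and Irf4 for its part in alternatively activated macrophages, a subset of dendritic cells and plasma cells.

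The design sets cells grown with CSF2 against cells grown with CSF1, to find genes expressed differently. Irf4 was the member that stood furthest apart, 24.3-fold higher in M(CSF2). Irf8 and Irf5 were also higher in M(CSF2), by 1.65-fold and 1.45-fold. No member was called lower, and Irf1, Irf2, Irf3, Irf7 and Irf9 did not pass the test. Genes with a limma adjusted p under 0.05, by Benjamini-Hochberg over all 19938 genes, count as called. The 3 of 8 members called stand beside 27.5% of all genes called, and the 3 called higher beside 11.9% of all genes called higher. None of the 8 was called lower, beside 15.6% of all genes. At an unadjusted limma p under 0.05, 4 members were higher and 1 was lower. The share of all genes at that looser threshold was not counted, here or for the lists below. The shares above are for adjusted p and cannot stand in for it.

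**Figure D1:**
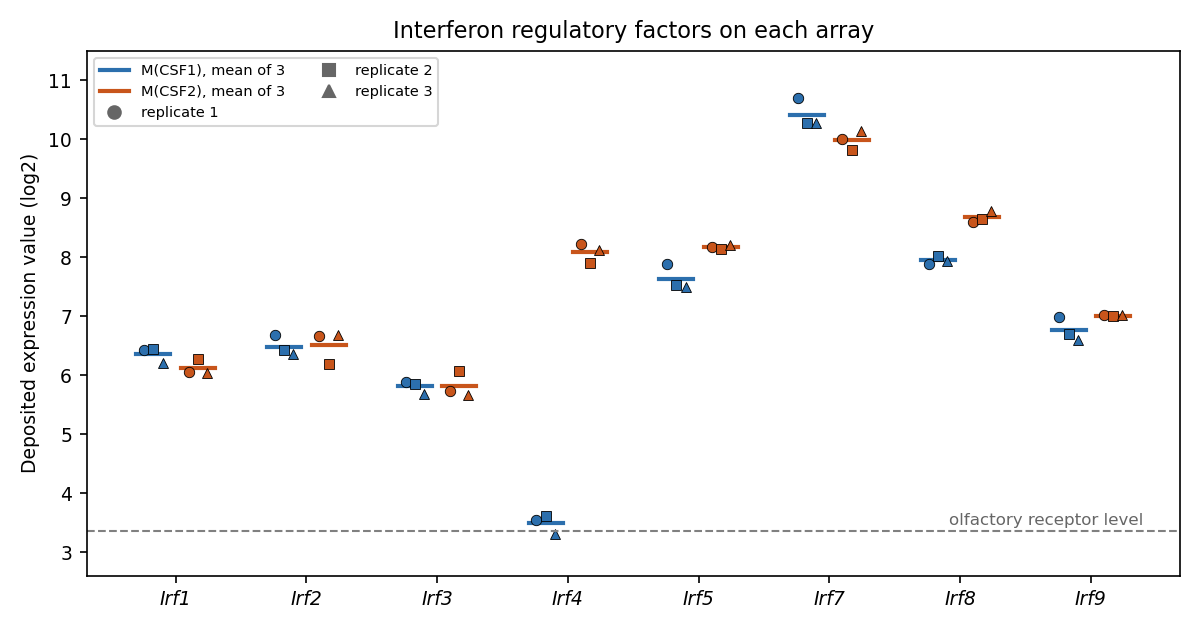
Deposited log2 value (y axis) of each factor on each of the 6 arrays, with blue symbols for M(CSF1), orange symbols for M(CSF2) and a bar at each group's mean of 3; the dashed line is the level under which 95% of 1027 olfactory receptor genes lie, 3.36. Irf4 in M(CSF1) is the only case at that line, and its M(CSF2) arrays lie between 7.91 and 8.23.

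Irf4 is shown first, because it had the largest difference of the family. Its deposited log2 values were 3.54, 3.61 and 3.31 in M(CSF1) replicates 1 to 3, and 8.23, 7.91 and 8.12 in M(CSF2) replicates 1 to 3. All 3 M(CSF2) arrays were far above all 3 M(CSF1) arrays, and the spread inside each group was small beside the gap. The means were 3.49 ± 0.16 (SD, n = 3) and 8.09 ± 0.16 (SD, n = 3). The log2 difference was 4.60 (SE 0.11, 95% interval 4.34 to 4.86), with a limma adjusted p of 3.493e-07. In M(CSF1) Irf4 lay at the edge of what these arrays separate from unexpressed genes. Olfactory receptor genes, which macrophages are not known to use, served as a measure of that edge, and the 95th percentile of 1027 of them was 3.36. Irf4 was below it on M(CSF1) replicate 3 and just above it on the other arrays of that group, so its fold may be understated. Of the 2373 genes called higher in M(CSF2), 36 had a larger difference than Irf4.

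Irf8, the closest relative of Irf4 in the family, was also higher in M(CSF2) but from a level well above that edge. It read 7.89, 8.03 and 7.94 in M(CSF1) and 8.60, 8.64 and 8.79 in M(CSF2). The groups did not overlap, and the lowest M(CSF2) array was above the highest M(CSF1) array. The means were 7.95 ± 0.07 and 8.68 ± 0.10 (SD, n = 3 each). The log2 difference was 0.72 (SE 0.08, 95% interval 0.54 to 0.91), a fold of 1.45 to 1.88, with a limma adjusted p of 0.000327. This is a modest size for these data, since 1056 genes called higher had a larger difference.

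Irf4 was also set against Irf8 inside each array, a difference that a shift of the whole array leaves unchanged. Irf4 minus Irf8 was -4.35, -4.42 and -4.63 in M(CSF1) and -0.37, -0.74 and -0.66 in M(CSF2). All 3 M(CSF2) arrays lay above all 3 M(CSF1) arrays. The mean moved by 3.88 log2 units (3.82 after quantile normalization), from -4.46 ± 0.15 to -0.59 ± 0.19 (SD, n = 3 each). An exact permutation test, 2-sided, gave p = 0.1, the smallest that 3 against 3 arrays allow. Different probe sets respond with different brightness, so these differences do not say which of the 2 transcripts was more abundant in either group. Only the shift between groups can be read from them.

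The 250 bases before the RefSeq starts of Irf4 and Irf8 are printed here because both genes rose, one of them from near the detection edge. They are on the plus strand of assembly GRCm38.p6, at chr13:30748983-30749232 and chr8:120736108-120736357. Capitals mark every match to the 7 letter patterns searched, which were TATAAA and, in Irf8, the GAS pattern TTC, any 3 bases, GAA, the form bound by STAT dimers.
Irf4: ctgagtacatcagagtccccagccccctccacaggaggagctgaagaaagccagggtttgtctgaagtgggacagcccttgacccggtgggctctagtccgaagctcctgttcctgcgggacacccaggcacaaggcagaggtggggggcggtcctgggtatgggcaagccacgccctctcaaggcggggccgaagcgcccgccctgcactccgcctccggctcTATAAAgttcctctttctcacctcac
Irf8: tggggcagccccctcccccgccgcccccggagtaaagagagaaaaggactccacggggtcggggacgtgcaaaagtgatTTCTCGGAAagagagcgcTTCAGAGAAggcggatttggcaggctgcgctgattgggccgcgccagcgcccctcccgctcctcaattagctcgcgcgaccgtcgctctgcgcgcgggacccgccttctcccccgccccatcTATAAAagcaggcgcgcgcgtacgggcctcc
Irf4 held TATAAA at -26 to -21 and no match to the other 6 patterns. Irf8 held TATAAA at -31 to -26 and the GAS pattern at -171 to -163 and again at -153 to -145. Another RefSeq start listed for Irf8, further downstream, held none of the 7 patterns in its 250 bases. Among 32851 RefSeq starts, 12.4% held TATAAA in the same 250 bases and 7.02% held the GAS pattern.

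Irf5, the family member tied to inflammatory cytokine genes, was higher in M(CSF2) as well. It read 7.88, 7.53 and 7.50 in M(CSF1) and 8.18, 8.14 and 8.21 in M(CSF2). M(CSF1) replicate 1 stood above the other 2 arrays of its group, yet below every M(CSF2) array. The means were 7.64 ± 0.21 and 8.18 ± 0.04 (SD, n = 3 each). The log2 difference was 0.54 (SE 0.11, 95% interval 0.28 to 0.80), with a limma adjusted p of 0.00756. Of the genes called higher, 1459 had a larger difference.

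Irf3 and Irf7, the factors that drive interferon genes once phosphorylated, were not called. Irf3 read 5.89, 5.85 and 5.69 in M(CSF1) and 5.73, 6.07 and 5.66 in M(CSF2). The groups overlapped and the log2 difference was 0.01 (95% interval -0.27 to 0.29), with a limma adjusted p of 0.954. Irf7, whose own promoter responds to interferon, read 10.69, 10.28 and 10.28 in M(CSF1) and 10.00, 9.81 and 10.13 in M(CSF2). Every M(CSF2) array was below every M(CSF1) array, but the gap between the nearest arrays was narrow. The log2 difference was -0.43 (SE 0.14, 95% interval -0.75 to -0.11), and the limma adjusted p was 0.05215, just past the threshold. M(CSF1) replicates 2 and 3 carry the identical Irf7 value; 36.2% of all probe sets share a value between at least 2 arrays, so such ties are common in this table. The call of Irf7 depended on the settings. Its adjusted p was under the threshold in 7 of 9 other settings, from 0.0218, and from 0.0607 to 0.176 when any array was left out.

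Irf9, the DNA-binding subunit of the complex formed below the type I interferon receptor, read 6.98, 6.69 and 6.60 in M(CSF1) and 7.02, 7.00 and 7.01 in M(CSF2). The M(CSF2) arrays were nearly equal, and M(CSF1) replicate 1 came close to them, though below. The log2 difference was 0.25 (SE 0.10, 95% interval 0.01 to 0.49), with a limma adjusted p of 0.125. Without M(CSF1) replicate 1 the log2 difference was 0.36 and the limma adjusted p was 0.014. It also passed after quantile normalization, with a log2 difference of 0.35 and a limma adjusted p of 0.0131.

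Irf1 and Irf2, which bind the same sites with opposite known effects, did not pass the test either. Irf1 read 6.42, 6.43 and 6.21 in M(CSF1) and 6.05, 6.28 and 6.04 in M(CSF2). M(CSF2) replicate 2 lay above M(CSF1) replicate 3, so the groups overlapped. The log2 difference was -0.23 (SE 0.10, 95% interval -0.47 to 0.00), with a limma adjusted p of 0.138. A second Irf1 probe set, built on a single complementary DNA, was dimmer and read 3.80 to 4.07 over the 6 arrays, with a log2 difference of -0.04 and a limma adjusted p of 0.767 among all probe sets. Irf2 read 6.68, 6.42 and 6.36 in M(CSF1) and 6.66, 6.19 and 6.68 in M(CSF2). The M(CSF2) arrays spanned the whole M(CSF1) range. Its log2 difference was 0.02 (95% interval -0.33 to 0.38), with a limma adjusted p of 0.929. The intervals of Irf2 and Irf3 leave room for a change of up to 0.38 and 0.29, so a small difference in either was not detectable with 3 arrays a group.

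**Figure D2:**
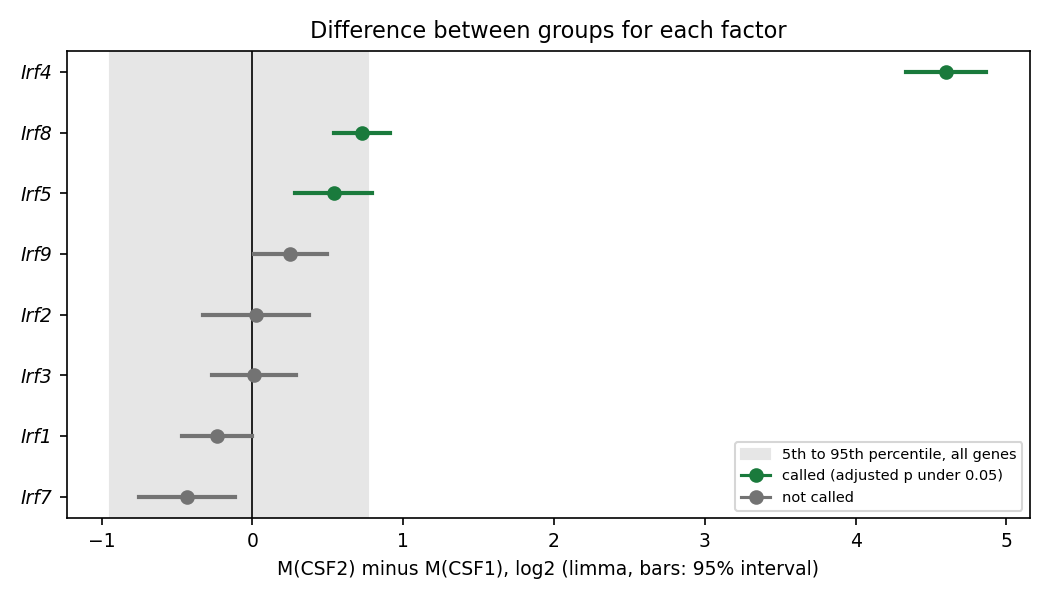
Log2 difference (x axis), M(CSF2) minus M(CSF1), for each factor, with its 95% interval from limma; green points were called and grey points were not, and the grey band spans the 5th to 95th percentile of all genes, -0.94 to 0.76. Irf4 lies outside the band at 4.60, while Irf8 and Irf5 lie inside it at 0.72 and 0.54.

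In 5 of 8 members, Irf4, Irf5, Irf7, Irf8 and Irf9, the groups did not overlap. Among all genes, dim ones included, 38.9% show the same. The exact permutation p was 0.1 for each of these 5 members, 0.2 for Irf1 and 1.0 for Irf2 and Irf3. The members' median log2 difference was 0.14, beside 0.04 for all genes. Their median size regardless of direction was 0.34, beside 0.15 for all genes and 0.69 for called genes. The replicates were not equally placed within their groups. M(CSF1) replicate 1 was the highest of its group in 5 members, and M(CSF1) replicate 3 was the lowest in 6. In M(CSF2), replicate 2 was the lowest in 5 members.

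Parts of the 250 bases before the starts of Irf1 and Irf2 are printed because they hold patterns read by STAT dimers or by the family itself. Both stretches are on the plus strand of GRCm38.p6, credited to RefSeq, at chr11:53769912-53769944 and chr8:46739495-46739541. Capitals mark the matches.
Irf1: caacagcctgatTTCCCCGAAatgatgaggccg
Irf2: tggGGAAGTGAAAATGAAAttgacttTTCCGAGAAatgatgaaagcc
The Irf1 match is the GAS pattern at -90 to -82. In Irf2 the capitals of the first run hold 2 overlapping patterns, the composite ETS-IRF pattern GGAA, any 2 bases, GAAA at -247 to -238, and the interferon-stimulated response pattern GAAA, any 2 bases, GAAA at -241 to -232. The second run of Irf2 is a GAS pattern at -224 to -216. Of all 32851 starts, 2.3% held the composite pattern and 2.98% the response pattern. Irf7 held TATAAA at -29 to -24 of the start listed for it. Irf3, Irf5 and Irf9 held none of the 7 patterns. The other 3 patterns searched, on both strands, were TGA, any base, TCA for AP-1 (6.75% of starts), GAGGAAGT for PU.1 (2.44%) and GGGA, any 2 bases, TTCC for NF-kB (1.21%), and no member held them. These are matches of letters, not binding sites, and a missing match says only that the letters are not in these 250 bases. The starts of Irf5 and Irf7 used here lie inside the annotated gene, downstream of its outermost start. For Irf1, Irf8 and Irf9 another start is listed downstream of the one used, and its 250 bases held no match.

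**Figure D3:**
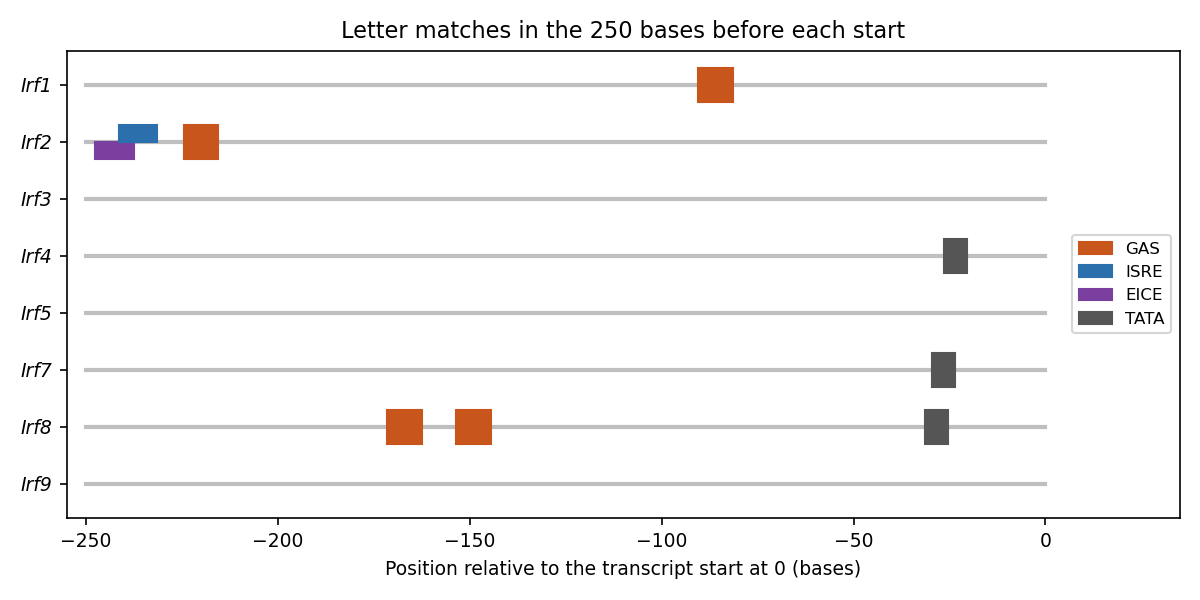
Matches to the searched letter patterns (coloured blocks) along the 250 bases before the RefSeq start used for each factor (x axis, bases relative to the start at 0), where ISRE is the interferon-stimulated response pattern, EICE the composite ETS-IRF pattern and TATA is TATAAA. Irf8 and Irf2 hold 3 matches each, Irf1, Irf4 and Irf7 hold 1, and Irf3, Irf5 and Irf9 hold none.

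Genes around the family were described from 10 lists, which overlap in part, so a gene such as Il12b, Il10 or Socs1 counts in more than 1. The lists were chosen with earlier results of these data known, so their counts are not independent of these data. The counts called in these lists, and among the cell type markers below, stand beside 11.9% of all genes called higher and 15.6% called lower. Those shares include dim genes. When only the 13627 genes above the olfactory receptor level in either group were tested, 5731 were called. Of the interferons themselves, which include the type I genes that Irf3 and Irf7 switch on, none of 15 measured genes was called, with 1 at an unadjusted p under 0.05 in limma. Only 4 of the 15 exceeded the olfactory receptor level in either group. Ifnb1, the interferon beta gene, had means of 3.13 ± 0.13 and 2.98 ± 0.06 (SD, n = 3 each) in M(CSF1) and M(CSF2), both under that level. The median log2 difference of the list was 0.01, and -0.04 after quantile normalization or centring each array on its median.

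Of 26 measured sensors, adaptors and kinases that lie upstream of the factors, 5 were higher in M(CSF2) and 11 lower, with a median log2 difference of -0.31. Ikbke, a kinase that phosphorylates Irf3 and Irf7, had means of 9.31 ± 0.15 and 7.33 ± 0.04 (SD, n = 3 each) in M(CSF1) and M(CSF2), a fall of 3.96-fold (limma adjusted p = 3.831e-06). The endosomal nucleic acid receptors Tlr8 and Tlr9 were 3.99-fold and 3.45-fold lower. Other receptors of that kind on the list did not all fall. On the log2 scale Tlr7 was lower (-0.91), Tlr13 was called higher (0.51) and Tlr3 was not called (0.11). The largest rises were those of Sting1, the adaptor for cytosolic DNA sensing, by 1.93 on the log2 scale, the lipopolysaccharide receptor Tlr4 by 1.01 and the ubiquitin ligase Traf6 by 0.64.

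Of 14 measured receptor and JAK-STAT genes, which act between interferon and Irf9, 6 were higher and 1 lower, with a median log2 difference of 0.07. Socs1 and Socs3, inhibitors of JAK signalling, rose by 2.41 and 1.51, and the kinase Jak2 by 1.18. Ifngr1, the ligand-binding chain of the interferon gamma receptor, fell by 0.57, and its limma adjusted p rose from 0.0098 to 0.0525 and 0.0555 without M(CSF1) replicate 1 or M(CSF1) replicate 2.

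Of 19 DNA-binding partners of the family, 6 were higher and 7 lower, with a median log2 difference of -0.11 (-0.01 after quantile normalization). The ETS, BATF and JUN partners of Irf4 and Irf8 went both ways. Spib fell by 1.09, Batf by 1.50, Jun by 0.86 and Spi1, which encodes PU.1, by 0.50. Junb rose by 0.71 and Jund by 0.52, while Batf2 (0.22) and Batf3 (-0.20) were not called. Batf2 passed without M(CSF2) replicate 3 (limma adjusted p = 0.0394) and Batf3 without M(CSF2) replicate 2 (limma adjusted p = 0.0498). Spi1, Jun, Junb, Jund, Batf2 and Batf3 were named outside the naming rule, after their values were seen. Batf read 8.18, 8.09 and 8.03 in M(CSF1) and 6.57, 6.63 and 6.59 in M(CSF2), so its groups stood well apart. Ikzf1, the zinc finger factor Ikaros, fell by 1.83. Cebpa and Cebpb, basic leucine zipper factors of the myeloid lineage, rose by 1.72 and 1.35, and the lineage factor Runx1 rose by 0.79.

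Of 10 measured relatives and regulators of the family, 3 were higher and 4 lower, with a median log2 difference of -0.17 (-0.09 after quantile normalization). Def6 and Swap70 encode related proteins known to bind Irf4 and to restrain its access to DNA, and they moved apart. Def6 rose by 0.77 (limma adjusted p = 0.00187) and Swap70 fell by 1.94 (limma adjusted p = 6.671e-05). Kdm6b, a histone demethylase known to act on Irf4, rose by 0.65, and Irf2bp2, a corepressor that binds Irf2, rose by 0.56. Peli1 and Trim21, ubiquitin ligases, fell by 2.42 and 1.08.

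**Figure D4:**
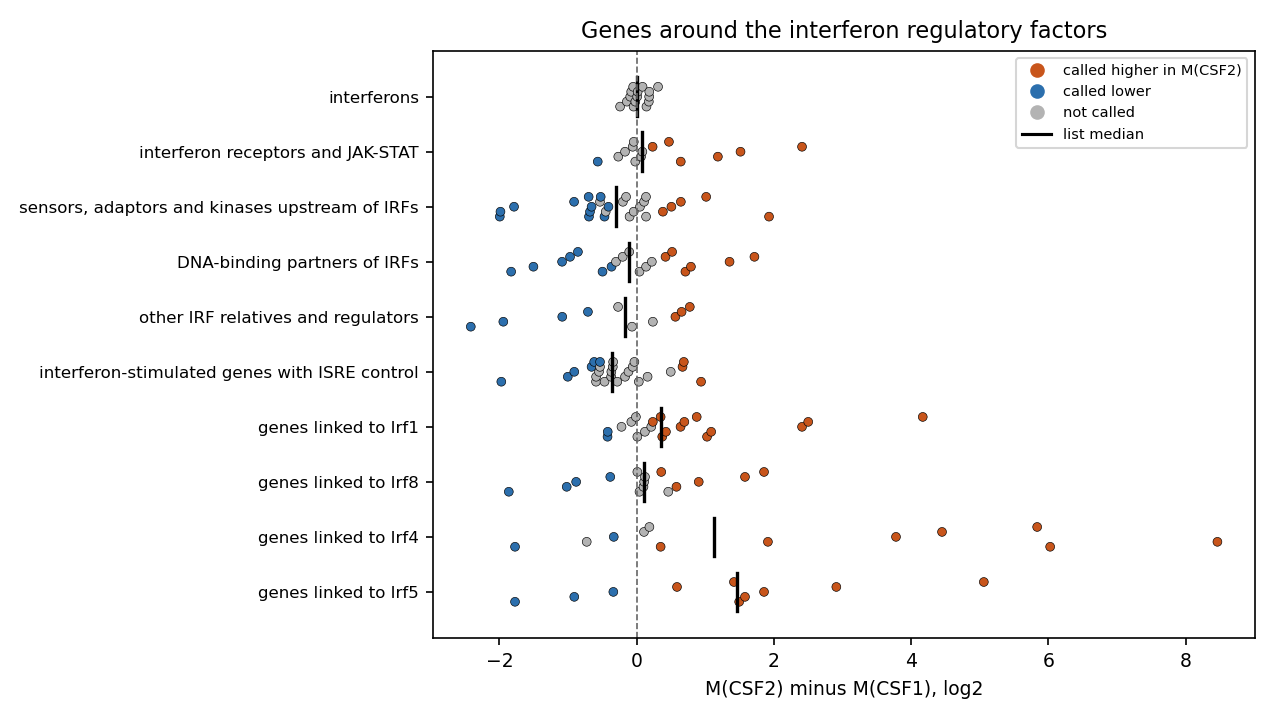
Log2 difference (x axis), M(CSF2) minus M(CSF1), of every measured gene in the 10 lists around the factors, each point a gene, orange if called higher, blue if called lower and grey if not called, with a black bar at the list's median. The medians run from -0.36 for the interferon-stimulated genes to 1.46 for the genes linked to Irf5.

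Interferon-stimulated genes with a response element, read by the complex that holds Irf9 and STAT2, were called in 9 of 26 measured cases, beside 27.5% of all genes. Of these, 3 were higher and 6 lower, and the median log2 difference of the list was -0.36. The antiviral gene Oas2 fell by 1.97, Rtp4 by 1.00 and the chemokine Cxcl10 by 0.91. Oasl2, Ly6e and Oas3 rose by 0.94, 0.69 and 0.67. The call of Oas3 (limma adjusted p = 0.0413) was lost when any array but M(CSF1) replicate 1 was left out and under 2 of 9 other settings, and Ly6e lost its call without M(CSF1) replicate 2 or M(CSF2) replicate 1. The list's median level on each array was 7.57, 7.24 and 7.09 in M(CSF1) and 7.31, 6.98 and 7.28 in M(CSF2). These array medians overlapped, with M(CSF1) replicate 1 highest and M(CSF2) replicate 2 lowest. The 9 called genes became 5 without M(CSF1) replicate 2 and 14 when only genes at or above the median signal were tested.

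Genes linked to Irf1 by earlier work were called higher in 12 of 20 measured cases and lower in 2, beside 11.9% and 15.6% of all genes. Their median log2 difference was 0.36, although Irf1 itself was not called. Nos2, the inducible nitric oxide synthase, rose by 4.17, the prostaglandin synthase Ptgs2 by 2.50 and Socs1 by 2.41. The caspase genes Casp1 and Casp4 each fell by 0.42, and Casp1 lost its call without M(CSF1) replicate 2 (limma adjusted p = 0.0693). The 14 called genes became 9 without M(CSF1) replicate 2.

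Genes linked to Irf8 went both ways, with 5 of 15 higher, 4 lower and a median log2 difference of 0.11 (0.065 after centring each array on its median). Il12b, the shared chain of interleukins 12 and 23, rose by 1.86, the chemokine Ccl5 by 1.58 and the protease inhibitor Cst3 by 0.90. The repressor Bcl6 fell by 1.86, the cytokine Il18 by 1.02 and the protease Ctsc by 0.88.

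Of 12 measured genes linked to Irf4, 7 were higher and 2 lower, beside 11.9% and 15.6% of all genes. Their median log2 difference was 1.13. Ccl17, a chemokine for CCR4, read 3.56, 3.91 and 4.13 in M(CSF1) and 12.30, 12.29 and 12.39 in M(CSF2), a log2 difference of 8.46 (SE 0.14, limma adjusted p = 7.938e-08). Ccl22, the other CCR4 ligand, rose by 5.84, and Pdcd1lg2, which encodes the checkpoint ligand PD-L2, by 6.03. The cytokine gene Il10 fell by 1.77. Prdm1, the plasma cell regulator Blimp-1, fell by 0.33 with a limma adjusted p of 0.033, a call lost under 2 of 9 other settings and when any array but M(CSF1) replicate 3 was left out. Some of these genes are among the largest changes of the whole series, and their place on this list was chosen with that known.

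All 10 genes linked to Irf5 were called, 7 higher and 3 lower, beside 27.5% of all genes called. This list too was chosen with earlier results known, so the count is not independent of these data. The median log2 difference of the 10 genes was 1.46. Il6 read 3.79, 4.44 and 3.90 in M(CSF1) and 8.98, 8.75 and 9.57 in M(CSF2), a log2 difference of 5.06 (SE 0.24, limma adjusted p = 4.655e-06). Il12a, the other chain of interleukin 12, rose by 2.91. Tnf, the tumour necrosis factor gene, fell by 0.34 with a limma adjusted p of 0.0488, a call lost under 2 of 9 other settings and when any array but M(CSF2) replicate 2 was left out. All 10 lists stand beside a median of 0.04 over all genes. No list was tested as a set, and none of these links was measured in these cells.

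The genes whose 6 values ran closest to a called member were found by the root mean square distance after each gene was centred on its own mean, among protein-coding genes. For Irf4 they were the metalloproteinase Mmp19, the adaptor Scimp and the urokinase receptor Plaur, at distances of 0.12, 0.13 and 0.13 log2 units, where the median gene lay at 2.29. Their log2 differences were 4.59, 4.60 and 4.61, next to 4.60 for Irf4. The distance takes in the size of the change, so this nearness follows from the choice and is no separate result. A gene without a change lies far from Irf4 for the same reason. For Irf8 they were the AP-1 subunit Fosl1, Higd1a and Klhl3, at 0.03, 0.04 and 0.05 (median gene 0.37). For Irf5 they were the lysosomal nuclease Dnase2a, Sec22c and the histone gene H2bc4, at 0.04, 0.04 and 0.06 (median gene 0.31). These are likenesses over 6 arrays in 2 groups, which many genes share.

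The labelled cell type was checked against markers. In both groups all 8 macrophage markers exceeded the olfactory receptor level, with Lyz2 the brightest at 12.43 and 11.95. Of the 8, 3 were called higher in M(CSF2), Cd14 by 1.71, Cd68 by 0.89 and Csf1r by 0.60, and 3 were called lower, with log2 differences of -1.23 for Fcgr1, -1.18 for Adgre1 and -0.48 for Lyz2. Their summed level, the log2 of their added unlogged values, ranged from 13.92 to 13.97 in M(CSF1) and 13.88 to 13.97 in M(CSF2). Irf4 and Irf8 are also used by dendritic, plasma and B cells, so those markers bear on them. Of 6 conventional dendritic cell markers, 1, Clec9a, was called higher (limma adjusted p = 0.0214) while dimmer in both groups than the olfactory receptor level, and it lost the call under 3 of the 7 other settings that kept it and without M(CSF1) replicate 2, M(CSF1) replicate 3 or M(CSF2) replicate 3. Zbtb46, the defining factor of that lineage, read 3.82, 3.82 and 3.90 in M(CSF1) and 4.22, 4.13 and 3.95 in M(CSF2), with a limma adjusted p of 0.0636, and 0.0243 without M(CSF2) replicate 3. The summed level of the 6 markers ranged from 5.75 to 5.83 in M(CSF1) and from 5.87 to 5.96 in M(CSF2). Only 3 of the 6 exceeded the olfactory receptor level in either group, so dim signal weighs on that sum. Their log2 differences ran from -0.08 to 0.27. Of 4 plasma cell markers, only Sdc1, the brightest and also made by macrophages, was called, and it rose by 1.33. The summed range, which mostly follows Sdc1, went from 7.32 to 7.46 up to 8.29 to 8.79. The other 3 were not called, with log2 differences of -0.11, -0.02 and 0.42. The defining gene Jchain was under the olfactory receptor level in both groups. Of 5 B cell markers, only Cd79b, the brightest, was called, and it fell by 2.20. The summed range, which mostly follows Cd79b, went from 7.60 to 7.86 down to 6.26 to 6.40. The other 4 were not called, with log2 differences of -0.43, 0.02, 0.15 and 0.29. None of 4 plasmacytoid dendritic cell markers was called, with 0 at an unadjusted p under 0.05 in limma, and their summed ranges were 5.14 to 5.44 and 5.30 to 5.35. The part of dendritic, B and plasma cells in the differences of Irf4 and Irf8 was not tested.

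Of the other cell types a marrow culture can hold, T and NK cell markers had 1 of 7 called lower (Cd4), mast cell and basophil markers 1 of 6 higher (Mcpt8, with all 6 under the olfactory receptor level and the call lost under 4 of the 7 other settings that kept it and when any array but M(CSF2) replicate 3 was left out), neutrophil markers 1 of 6 higher (Ltf, with both group means under the olfactory receptor level) and eosinophil markers 1 of 4 lower (Ccr3, at least 4.44-fold). Array medians ran from 3.91 to 4.00, and arrays of a group correlated at 0.9948 to 0.9968 over all probe sets, against 0.9543 to 0.9593 between groups. As reference levels, the CSF2 receptor chains Csf2ra and Csf2rb rose by 1.25 and 3.62 and Csf1r by 0.60, while Actb fell by 0.37 and the leukocyte antigen gene Ptprc by 0.73.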

How the data were processed

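The table deposited by the authors holds log2 values for 28941 probe sets on 6 arrays; no source states the scale, and base 2 was read from their range of 1.48 to 13.27. The submitters' processing notes name MAS5; background correction, normalization and summarisation are not given in the sources used here, and no detection calls were used. Gene names came from the platform annotation (probe sets: 21789 with 1 gene, 1621 with several and 5531 with none), checked by Entrez identifier against RefSeq GRCm38.p6 (21698 found). Only probe sets with 1 gene were tested, each gene by its brightest probe set (999 genes had several), with no filter on dim genes. In R 4.3.3, limma 3.58.1 (lmFit, then eBayes) gave 2-sided tests of M(CSF2) minus M(CSF1). Benjamini-Hochberg adjustment ran over 19938 genes, and calls needed an adjusted p under 0.05. The procedure was tested on simulated data with independent normal noise, which lack the tied values of the real table. That run does not measure the error rate in the real data. The number of arrays limits the precision.

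The members, gene lists, markers and letter patterns were chosen with earlier results of these data known. Named genes were all 8 members, up to 3 called rises and 3 called falls per list with the largest change, Ifnb1, the 3 genes nearest each called member, the brightest marker per cell type, the CSF receptors, Actb and Ptprc. The text also names the ETS, BATF and JUN partners of Irf4 and Irf8 and the endosomal receptors Tlr3, Tlr7 and Tlr13. Of the cell type markers, it names those called and some that define a type. All of these were chosen after their values were seen. Letter patterns were searched on both strands of RefSeq promoter sequences. The fit was repeated after quantile normalization or median centring, with 2 filters on signal, with probe sets averaged or tested singly, with an intensity trend or robust variance, with a replicate block, and without each array in turn.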

Additional observations from a re-analysis of the deposited data

How the results depend on the processing

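Irf4, Irf8 and Irf5 kept their direction and their call under all 15 alternatives, 9 other settings and 6 fits that each left out 1 array. Leaving out 1 array gave log2 differences of 4.51 to 4.69 for Irf4, 0.67 to 0.76 for Irf8 and 0.47 to 0.66 for Irf5, the last with a limma adjusted p of up to 0.0443. Irf4 minus Irf8 moved by 3.77 to 3.95. Irf2 and Irf3 changed sign when arrays were centred on their medians, to -0.0195 and -0.0313, and ranged from -0.0595 to 0.185 and from -0.112 to 0.0924 when 1 array was left out.

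Irf7 passed the limma test after quantile normalization (-0.40), centring on array medians (-0.48), both filters on dim genes, an intensity trend and robust variance, the last 4 at an unchanged log2 difference of -0.43. In each of these settings the count of factors called lower went from 0 to 1, and it was 0 in each fit without 1 array. The filters test fewer genes; for the rest the cause was not tested. Irf9 was called after quantile normalization (0.35), and its difference ranged from 0.17 to 0.36 when 1 array was left out. The interferon-stimulated genes called went from 9 to 14 with the filter at the median signal and ranged from 5 to 11 without 1 array, and those linked to Irf1 went from 14 to between 9 and 12. Of 83 other named genes, which do not include Tlr3, Tlr7, Tlr13 or Jchain, 68 kept their direction and side of the threshold in every alternative that kept them. The marker Ly6d changed sign without M(CSF1) replicate 1 and ranged from -0.0171 to 0.189 without 1 array.

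The labels do not say whether arrays with the same replicate number belong together. Over all genes, deviations from the group means correlated at 0.004, -0.044 and -0.253 between same-numbered arrays. Between differently numbered arrays the correlations ran from -0.186 to 0.212. Correlations over all genes cannot show whether some genes share an effect of the replicate number, which was not tested. With the replicate block Irf7 was called (-0.43, limma adjusted p = 0.0403), the factors called lower were 1, and 16 interferon-stimulated genes were called. Dim genes near the olfactory receptor level, Irf4 in M(CSF1) among them, have uncertain folds.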
